A study of Saccharomyces cerevisiae with 6 samples.

Results

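The phosphate regulon is the set of budding yeast genes that the transcription factor Pho4 turns on when phosphate runs short. Described here are 10 of its genes. Among them are the acid phosphatase genes PHO5 (YBR093C) and PHO11 (YAR071W), the regulators PHO81 (YGR233C) and SPL2 (YHR136C), and the transporter genes PHO84 (YML123C) and PHO89 (YBR296C). The others are VTC1 (YER072W) and VTC3 (YPL019C), for subunits of the complex that makes polyphosphate, and PHM6 (YDR281C) and PHM8 (YER037W). All 10 were listed by name, with earlier results of these data known, out of 5449 genes tested. Each of the 10 had 1 probe set, the group of short probes that reports a gene on the array. Transcripts were read on 6 expression arrays that use 1 colour: 3 of a wild-type diploid of the filamentous Σ1278b background and 3 of a homozygous diploid of the same background that lacks PUN1, a plasma membrane protein gene. Both strains were grown at 30 °C to an OD600 of 0.6 in rich YPD medium, washed, and held for 6 h in SLAD medium, which contains 2% glucose, 0.17% yeast nitrogen base and, in the labels' spelling, 50 mm ammonium sulfate. The labels name nitrogen as the scarce nutrient and mention no limit on phosphate.

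When phosphate is plentiful, the cyclin and kinase pair Pho80 and Pho85 phosphorylates Pho4 and keeps it out of the nucleus. When phosphate falls, Pho81 inhibits that kinase, Pho4 acts together with Pho2, and genes for secreted phosphatases, high-affinity transporters and polyphosphate synthesis are induced. Inositol pyrophosphates signal phosphate status to proteins with an SPX domain, among them Pho81 and subunits of the vacuolar transporter chaperone (VTC) complex, which makes polyphosphate.

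All values are the deposited log2 values, 3 values in a row are those of replicates 1, 2 and 3, and differences are deletion minus wild type. Array medians over the tested probe sets were 10.86, 10.87 and 10.85 in wild type and 10.89, 10.88 and 10.91 in the deletion. Medians over all probe sets of the array were 6.85, 6.91 and 6.88 in wild type and 7.06, 7.05 and 7.09 in the deletion. Every deletion array was thus above every wild-type array on both medians, by less for the tested probe sets than for the array as a whole. Background, the 95th percentile of the array's probe sets for genes of fission yeast, lay between 5.67 and 5.74. PUN1 itself read 13.35, 13.50 and 13.55 in wild type and 8.33, 4.83 and 4.93 in the deletion, where the last 2 arrays were below background. Deletion replicate 1, at 8.33, lay above its background of 5.68, and the reason was not tested. Mating-type markers also separated the groups, although the study describes both strains as diploid. All 16 measured haploid and alpha-cell genes were higher in the deletion arrays, with summed linear signals of 81831 to 85383 against 4033 to 4295 in wild type. HMRA1, the a1 gene, read 9.05, 8.82 and 9.42 in wild type and was below background on all 3 deletion arrays. Of the 7 a-cell genes, 0 passed the test. Every difference given here is therefore between arrays that differ both in PUN1 and in mating-type genes, and these cannot be told apart. The 25S ribosomal RNA control (3′ probe set) was high on wild-type replicate 1 and on deletion replicates 2 and 3 (12.81, 11.28 and 12.53). It was low on the other arrays (8.85 to 9.07). Its part in the results was not tested beyond leaving those 3 arrays out. That setting compares deletion replicate 1 alone with wild-type replicates 2 and 3, so its values rest on 1 deletion array. That array is also the deletion array whose PUN1 value lay above background.

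The 10 genes did not move together. PHM8, PHM6 and PHO5 rose in the deletion arrays, by 1.84-fold, 1.57-fold and 1.20-fold. VTC3 fell, to 0.765 of its wild-type level. PHO11, PHO81, SPL2, PHO84, PHO89 and VTC1 did not pass the test. Over the alternatives tried, 2 to 4 of the 10 were called higher and 1 to 2 lower. The count of 4 called genes of 10 stands beside 25.6% of all 5498 probe sets tested; 15.8% were called higher and 9.82% lower (limma, Benjamini-Hochberg adjusted p under 0.05). With each array centred on its median the split of all calls was 49.7% higher, after quantile normalization 47.9%, and as deposited 61.6%. The median difference of the 10 genes was 0.06, beside 0.02 over all tested probe sets. The groups did not overlap for 6 of the 10 genes, where 44.8% of all tested probe sets had no overlap. Of those 6, the deletion was higher for PHO5, SPL2, PHM6 and PHM8 (26.7% of all tested probe sets) and lower for PHO84 and VTC3 (18.1%).

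**Figure D1:**
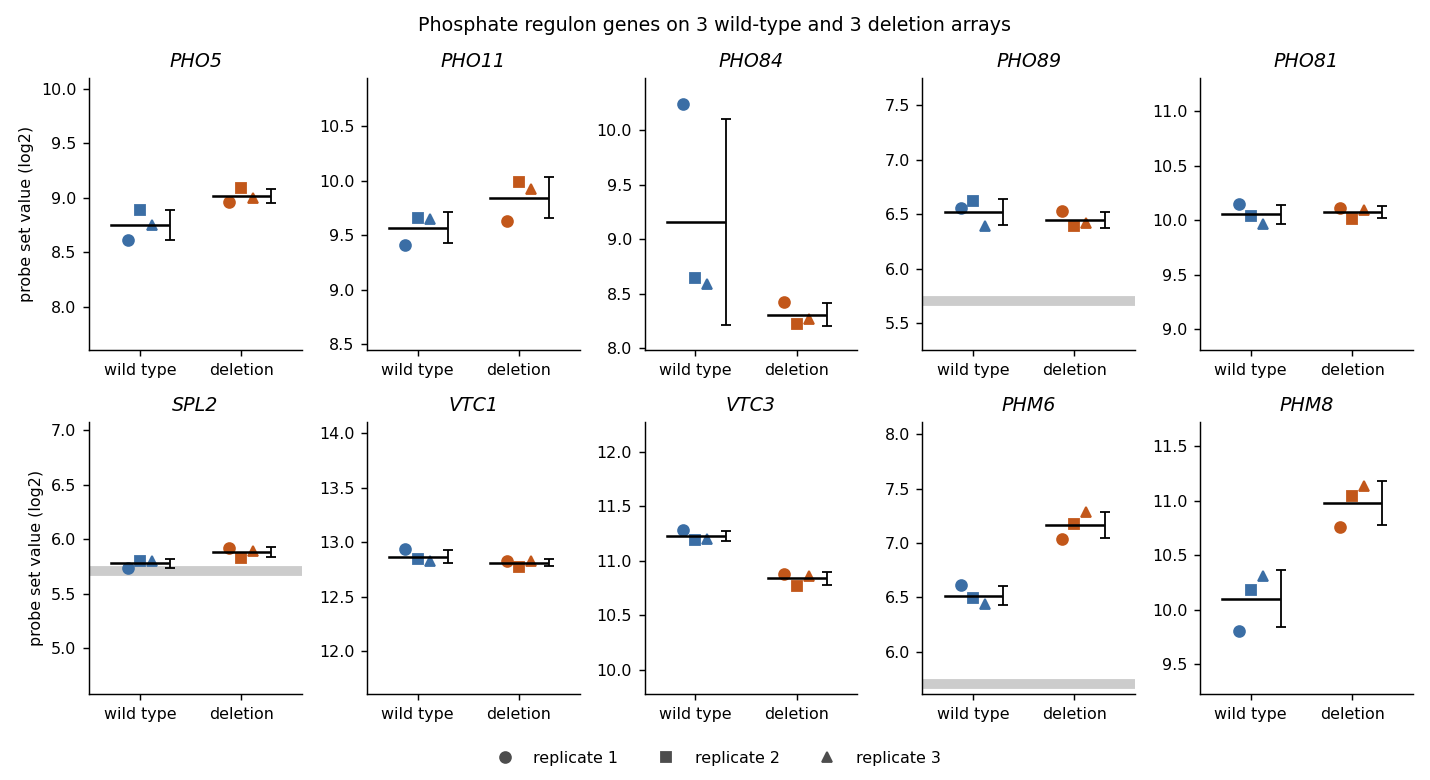
Deposited log2 values of the 10 phosphate regulon genes on each array. Points are arrays (circle, square and triangle for replicates 1, 2 and 3), horizontal lines are group means, bars are ± 1 SD (n = 3), every panel spans the same number of log2 units, and the grey band is the range of array backgrounds. The groups do not overlap for PHO5, PHO84, SPL2, VTC3, PHM6 and PHM8, and wild-type replicate 1 stands far above the others for PHO84.

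PHO81 and SPL2 are regulators within the regulon. PHO81 encodes the inhibitor of Pho80-Pho85 and is itself induced by Pho4. It read 10.15, 10.04 and 9.97 in wild type and 10.12, 10.01 and 10.10 in the deletion. The groups overlapped, and the difference was 0.02 (95% confidence interval -0.12 to 0.16, adjusted p = 0.829 in limma). In linear terms the interval runs from 0.922-fold to 1.12-fold. Its sign turned with the setting, to -0.01 after median centring and to -0.02 without wild-type replicate 3. SPL2 encodes a small protein that lowers uptake by the low-affinity transporters. It read 5.73, 5.80 and 5.80 in wild type and 5.92, 5.83 and 5.89 in the deletion. All 6 values lay close to background and wild-type replicate 1 lay below it. The difference was 0.10 (interval -0.003 to 0.21, adjusted p = 0.137), and it turned to -0.08 after a further quantile normalization.

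Secreted acid phosphatases are the classical readout of the pathway: they cleave phosphate from compounds outside the cell. PHO5, which encodes the main repressible enzyme, read 8.61, 8.88 and 8.75 on the wild-type arrays and 8.96, 9.09 and 9.00 on the deletion arrays. Each deletion array was above each wild-type array, with a gap between the nearest arrays that was smaller than the spread within wild type. The difference was 0.27 (SE 0.07, n = 3 per group, interval 0.09 to 0.45, adjusted p = 0.0401 in limma). Leaving out single arrays ended the call in 5 of 6 cases (adjusted p = 0.0544 to 0.133), the exception being wild-type replicate 2. It was also lost after median centring (adjusted p = 0.0610), after quantile normalization (difference 0.15, adjusted p = 0.122), with all probe sets of the array fitted (adjusted p = 0.0828) and with the 3 arrays of high 25S signal removed (difference 0.15, adjusted p = 0.325).

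PHO11 encodes another repressible acid phosphatase. Its probe set carries the suffix that the array maker gives to probes shared by several transcripts. PHO12, a close relative, has no probe set of its own in the platform table, so the signal of PHO11 may include it and is uncertain. PHO11 read 9.41, 9.66 and 9.65 in wild type and 9.64, 9.99 and 9.92 in the deletion. Deletion replicate 1 lay within the wild-type range and the other deletion arrays lay above it. The difference of 0.28 (SE 0.11, interval 0.02 to 0.54) did not pass (adjusted p = 0.111). With the replicate number as a block it passed at the same size (adjusted p = 0.0103), and it passed without deletion replicate 1 (0.38, adjusted p = 0.0268). It was -0.02 once the 3 arrays of high 25S signal were left out. That value rests on deletion replicate 1, the lowest of the deletion arrays for PHO11.

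PHO3, the neighbour of PHO5 in the R64 gene table, encodes an acid phosphatase that is not under phosphate control and is repressed by thiamine. It read 6.35, 6.56 and 6.49 in wild type and 6.77, 6.84 and 6.95 in the deletion, a rise of 0.38 (SE 0.07, adjusted p = 0.00997). The groups did not overlap, and every value lay 0.60 to 1.28 above background. The call was lost after quantile normalization (0.12, adjusted p = 0.116) and without the 3 arrays of high 25S signal (0.24, adjusted p = 0.0935). PHO3 and PHO5 are close relatives, and signal shared between their probe sets was not tested.

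High-affinity uptake rests on 2 transporters, Pho84, which moves phosphate together with protons and also acts as a phosphate sensor, and Pho89, which moves it together with sodium. PHO84 read 10.24, 8.64 and 8.59 in wild type and 8.43, 8.22 and 8.27 in the deletion. All deletion arrays were below all wild-type arrays, but the size of the gap was set by wild-type replicate 1. With that array the difference was -0.85 (SE 0.42, interval -1.85 to 0.15) and did not pass (adjusted p = 0.185 in limma). Without it the difference was -0.31 (SE 0.07), which passed (adjusted p = 0.0256) and corresponds to a 1.24-fold higher level in wild type. Without the 3 arrays of high 25S signal, wild-type replicate 1 among them, it was -0.19 (adjusted p = 0.162).

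Wild-type replicate 1 exceeded the mean of the other wild-type arrays by 1.63 for PHO84, a 3.09-fold difference between cultures labelled alike. This was the largest such excess among the 5498 tested probe sets, of which the central 95% lay between -0.34 and 0.29. The pooled within-group SD of PHO84 was 0.67, the second largest of all tested probe sets (rank 2), where the median SD was 0.07. The other phosphate regulon genes did not share the excess on that array. PHM6, PHO81, VTC1, VTC3 and PHO89 were 0.05 to 0.15 above the mean of the other wild-type arrays, and SPL2, PHO5, PHO11 and PHM8 were 0.07 to 0.44 below it. The 25S control was high on this array at 12.81, and deletion replicate 3, at a similar 12.53, had a PHO84 value of 8.27. These arrays also differ in strain, and a link between the 25S signal and PHO84 was not tested.

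**Figure D2:**
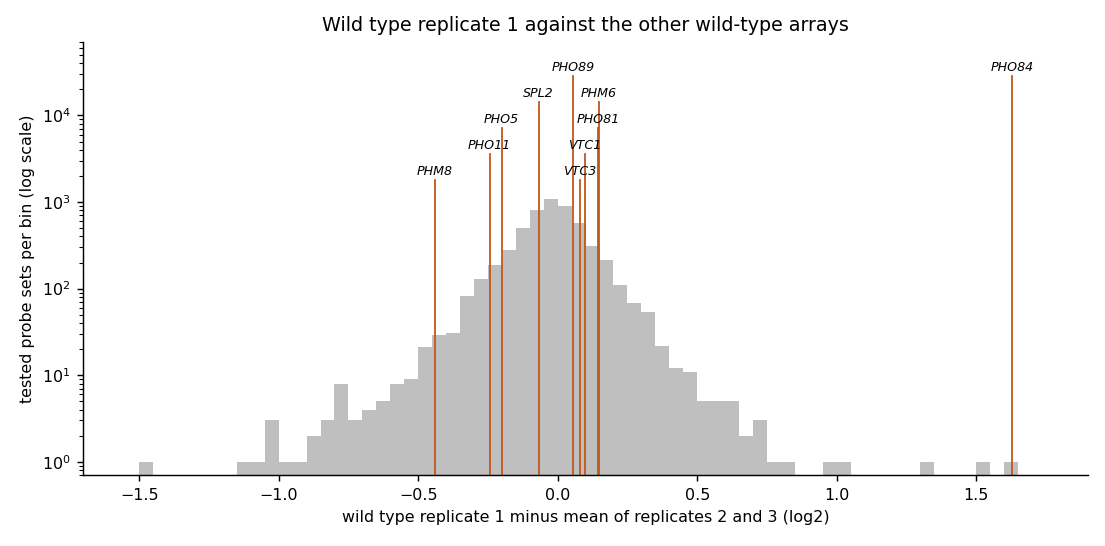
Wild-type replicate 1 minus the mean of wild-type replicates 2 and 3 (log2, horizontal axis) for the 5498 tested probe sets (grey bars, counts on a log axis), with the 10 phosphate regulon genes as vertical lines whose heights only separate the labels. PHO84, at 1.63, lies at the right end, while the other genes lie between -0.44 and 0.15.

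PHO89 read 6.56, 6.62 and 6.39 in wild type and 6.53, 6.39 and 6.42 in the deletion. These values were above background on every array and the groups overlapped. The difference was -0.07 (interval -0.24 to 0.10, adjusted p = 0.494). It turned to 0.03 without the 3 arrays of high 25S signal, and it passed as -0.31 after quantile normalization (adjusted p = 0.0297).

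The VTC complex polymerises phosphate into polyphosphate, the main phosphate store of the vacuole; Vtc4 is the catalytic subunit, Vtc1 a small membrane subunit, and Vtc2 and Vtc3 are alternative partners. VTC3 read 11.28, 11.19 and 11.20 in wild type and 10.88, 10.77 and 10.86 in the deletion. No deletion array reached the wild-type range, and the spread within each group was small (11.22 ± 0.05 and 10.84 ± 0.06, SD, n = 3). VTC3 fell by 0.39 on the log2 scale (SE 0.05, interval -0.50 to -0.27, adjusted p = 0.00195 in limma). It passed under all 13 alternatives tried, with adjusted p-values from 0.000714 to 0.0364.

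VTC1 read 12.93, 12.84 and 12.83 in wild type and 12.83, 12.77 and 12.83 in the deletion. The groups overlapped and the difference was -0.06 (interval -0.16 to 0.05, adjusted p = 0.405). VTC2, which encodes the partner that can take the place of Vtc3, differed by 0.04 (interval -0.07 to 0.15), and VTC4 by -0.13 (interval -0.25 to -0.0006, adjusted p = 0.127); VTC4 passed without deletion replicate 1 (-0.17, adjusted p = 0.0368). Within each array, VTC3 was set against the other 3 subunit genes. The log2 ratio of VTC3 to VTC1 was -1.97 ± 0.03 in the deletion and -1.64 ± 0.02 in wild type (SD, n = 3), a difference of -0.33. The ratio to VTC2 differed by -0.43 and the ratio to VTC4 by -0.26. In each of these 3 comparisons the groups separated completely. The two-sided exact permutation p was 0.1 before and after adjustment. That is the smallest that 3 arrays against 3 allow, so this test could not pass a threshold of 0.05. All 3 ratios use the VTC3 values already called lower, so they are not separate support for that fall.

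PHM6 and PHM8, whose shared prefix stands for phosphate metabolism, had the largest increases of the 10 genes. PHM8 encodes a nucleotidase that acts on nucleoside monophosphates and lysophosphatidic acid. It read 9.81, 10.18 and 10.31 in wild type and 10.76, 11.04 and 11.14 in the deletion. Every deletion array was above every wild-type array, and replicate 1 was the lowest array of both groups. PHM8 rose by 0.88 (SE 0.15, n = 3 per group, adjusted p = 0.00695 in limma), a 1.84-fold difference with an interval of 1.44 to 2.35. Its increase ranked 92 among the 5498 probe sets, and that of PHM6 ranked 149. Its call held under all 13 alternatives tried (adjusted p = 0.000457 to 0.0308), and its size dropped to 0.51 without the 3 arrays of high 25S signal.

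PHM6 encodes a small protein of unknown function. It read 6.61, 6.49 and 6.44 in wild type and 7.04, 7.17 and 7.28 in the deletion. The groups did not overlap, and all 6 values lay above background, by 0.74 to 1.61. PHM6 rose by 0.65 (SE 0.07, adjusted p = 0.00152), a 1.57-fold difference with an interval of 1.39 to 1.77. It passed under all 13 alternatives tried (adjusted p = 0.00138 to 0.0199), and its size was 0.41 after quantile normalization.

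**Figure D3:**
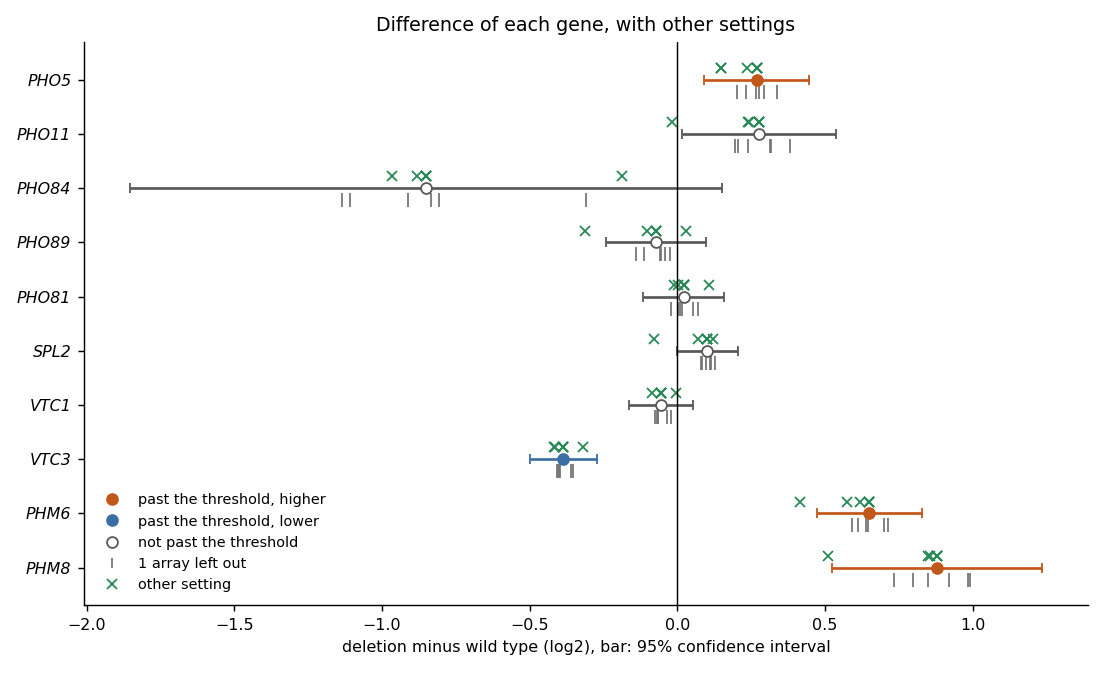
Difference between deletion and wild type (log2, horizontal axis) for each gene, with its 95% confidence interval from limma; filled points passed the threshold. Grey ticks are the same difference with 1 array left out and green crosses are the other settings: PHO5, PHO84, VTC1, VTC3, PHM6 and PHM8 keep their sign in all of them, and the PHO84 tick at -0.31 is the one without wild-type replicate 1.

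Within the groups, the deviation of replicate 1 from its group mean was compared between the strains. On replicate 1 of both strains PHM8, PHO5 and PHO11 lay below their group means, and PHO84, PHO89, PHO81, VTC1 and VTC3 lay above them. The deviations of wild-type and deletion replicate 1 had the same sign for 8 of the 10 genes, beside 62.0% of all tested probe sets. Whether the 10 genes differ from that share was not tested. The signs were opposite for PHM6 (0.10 in wild type and -0.12 in the deletion) and SPL2 (-0.05 and 0.04). The pooled within-group SD was 0.23 for PHM8, 0.17 for PHO11 and 0.11 for PHO5, and it was 0.05 for VTC1 and VTC3.

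The wider set of 41 genes of phosphate sensing and use was counted in the same fit; 38 had a probe set, and PHO12, VTC5 and PPN2 did not. Of the 38, 6 rose, 4 fell and 28 did not pass. With the replicate number as a block DIA3 also passed as higher (0.31, adjusted p = 0.0181), and ARG82 and PCL8 as lower (-0.19 and -0.21, adjusted p = 0.0223 for both). Leaving out 1 array also brought DIA3 past the threshold (0.42, adjusted p = 0.00978, wild-type replicate 2 left out) and PCL8 (-0.28, adjusted p = 0.0337, wild-type replicate 1 left out). The 10 called genes are 26.3%, close to the 25.6% of all tested probe sets, and the median difference was -0.02. In the same arrays all 16 haploid and alpha-cell genes were higher, by 2.31 to 7.93.

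Of the regulators, PHO4, the activator of the regulon, fell: it read 11.43, 11.39 and 11.36 in wild type and 11.21, 11.17 and 11.08 in the deletion. Its groups did not overlap, and the difference was -0.24 (SE 0.05, interval -0.35 to -0.13, adjusted p = 0.0117). PHO2, the homeodomain partner of Pho4, differed by -0.13 and did not pass (adjusted p = 0.122). After quantile normalization the PHO2 difference was -0.225 and passed (adjusted p = 0.0391 in limma). PHO80 and PHO85, the cyclin and kinase that inactivate Pho4, differed by 0.08 and 0.09, and PHO23, a subunit of a histone deacetylase complex, by -0.05; none of these 3 passed (adjusted p = 0.195 to 0.548). PHO92, which encodes a reader of methylated adenosine in RNA, rose by 0.40 (SE 0.08, adjusted p = 0.0115), a call that ended after quantile normalization (0.17, adjusted p = 0.215).

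Among the 7 enzymes of inositol phosphate and pyrophosphate metabolism, DDP1, a hydrolase of these molecules, rose by 0.19 (SE 0.04, adjusted p = 0.0147) and the other 6 did not pass. Their differences ran from -0.19 to 0.15. The call on DDP1 was lost with all probe sets fitted (adjusted p = 0.0561) and without deletion replicate 2 or 3 (adjusted p = 0.0574 and 0.0585). Of the other phosphatases, PHO13, which clears toxic side products of metabolism, rose by 0.20 (SE 0.04, adjusted p = 0.0142), a call lost with all probe sets fitted (adjusted p = 0.0516) and without deletion replicate 3 (adjusted p = 0.0523). The vacuolar alkaline phosphatase gene PHO8 differed by 0.05 (adjusted p = 0.385).

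Of the 8 other transporter and trafficking genes, SYG1, a membrane protein with an SPX domain, rose by 0.27 (SE 0.04, adjusted p = 0.00506) and 7 did not pass, the low-affinity transporter genes PHO87, PHO90 and PHO91 among them. PHO90, at 0.23 (adjusted p = 0.240), passed without wild-type replicate 1 (0.37, adjusted p = 0.0177). With the 3 arrays of high 25S signal removed, which leaves 1 deletion array, the PHO90 difference was 0.48. HOR2, listed as GPP2 in the gene table and encoding a glycerol phosphatase that is also induced by osmotic stress, rose by 0.62 (SE 0.08, adjusted p = 0.00247). It read 13.15, 13.28 and 13.17 in wild type and 13.64, 13.88 and 13.92 in the deletion, with no overlap. CTF19, a kinetochore gene, fell by 0.28 (SE 0.04, adjusted p = 0.00296), and by 0.51 after quantile normalization. Of the other Pho85 cyclins, PCL7 fell by 0.34 (SE 0.05, adjusted p = 0.00490). PCL6, its close relative, fell by 0.18 (SE 0.05, adjusted p = 0.0367), a call lost with all probe sets fitted (adjusted p = 0.102) and in 5 of the 6 fits that left out 1 array (adjusted p = 0.0752 to 0.105). Without the 3 arrays of high 25S signal, HOR2 and PHO92 passed, while PHO4, DDP1, PHO3, PHO13, SYG1, CTF19, PCL6 and PCL7 did not (adjusted p = 0.0602 to 0.214).

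**Figure D4:**
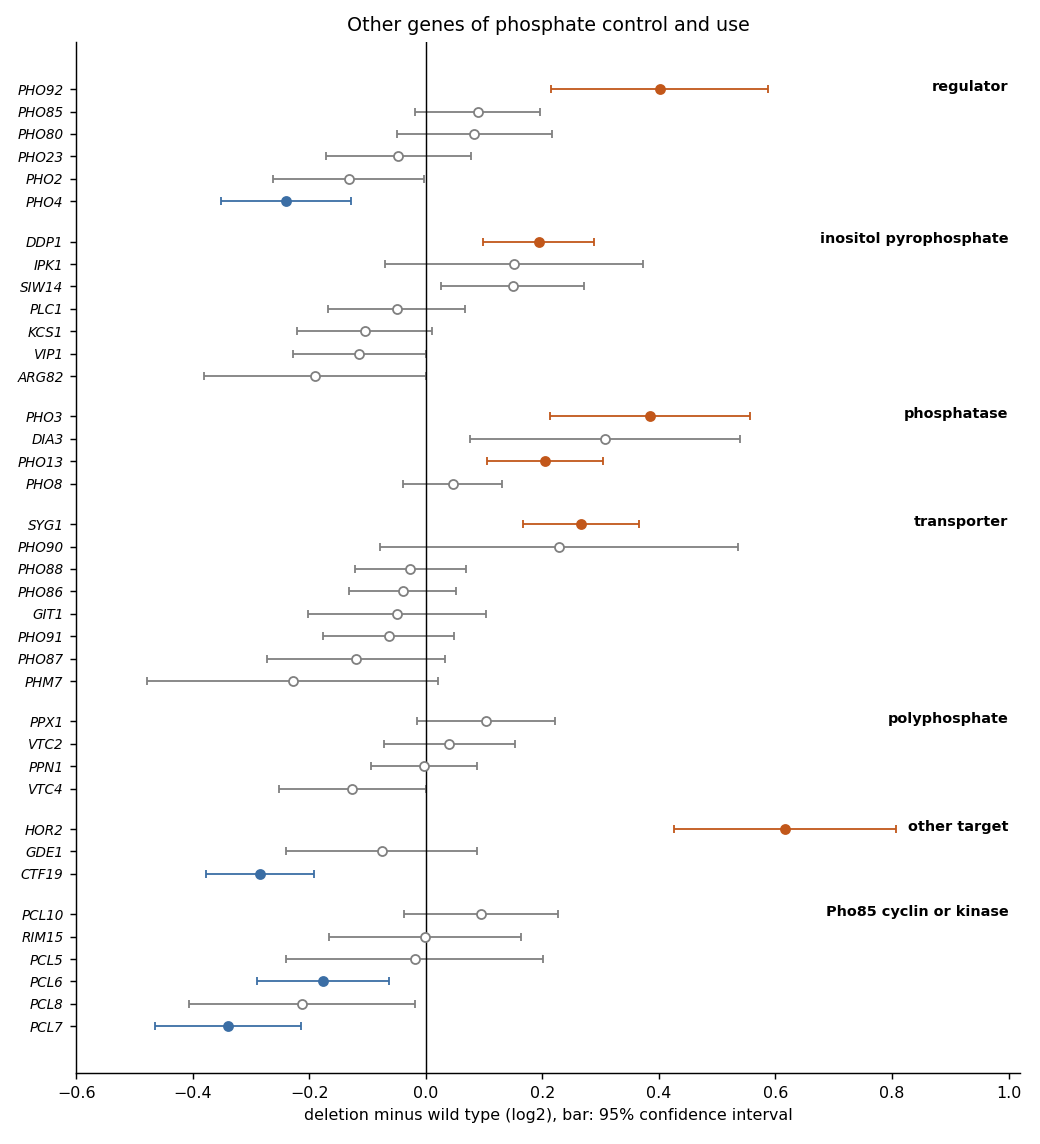
Difference between deletion and wild type (log2, horizontal axis) with 95% confidence intervals from limma for the 38 measured genes of the wider list, grouped by role. Filled points passed the threshold, 6 higher (orange) and 4 lower (blue), and the largest difference is that of HOR2 at 0.62.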

How the data were processed

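The authors deposited 1 log2 value per probe set and array, 10928 probe sets on 6 arrays. GCOS 1.1, GCRMA and limma are named, per the submitters' processing notes, with no order of steps; the log base was read from the range of the values. Polyadenylated RNA was purified and labelled with biotin, per the labels' protocols. No columns of other samples were present (0). Probe sets were named through the platform table and, by gene ID, the R64 gene table; 7244 had 1 symbol, 1 had several and 3683 had none. The fit took the 5498 probe sets of budding yeast genes. Background came from 1746 fission yeast probe sets. For the probe design the genome build is not stated in the labels, and no positions or sequences are printed.

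The test was the moderated test of limma 3.58.1 (R 4.3.3; functions lmFit and eBayes, two-sided, no covariates), with Benjamini-Hochberg adjustment over all 5498 probe sets and a threshold of 0.05. Intervals are 95% confidence intervals from that fit. It was also run on simulated data with independent noise on each array. Those data hold none of the deviations shared between arrays described below, so they cannot show how the fit handles them. The precision is limited by 3 arrays per group. The replicates are labelled biological; whether they shared a day is not stated. Arrays with the same replicate number deviated together across probe sets (correlations of 0.351, 0.213 and 0.112 for replicates 1, 2 and 3). All exceeded the 0.1 set as the rule for pairing, but so did some mismatched arrays. Wild-type replicate 2 with deletion replicate 3 reached 0.183, and wild-type replicate 3 with deletion replicate 2 reached 0.161. Only replicate 1 stood apart, so the correlations do not settle a pairing of replicates 2 and 3. The genes named are the 10 members and, from the wider list, those that passed, the regulators and close relatives of members; PHO8, VTC4, PHO87, PHO90, PHO91, DIA3, ARG82 and PCL8 were added after their values were seen. The members and lists were chosen with earlier results of these data known. Bulk RNA cannot tell fewer cells of a type from less RNA per cell. Figures were drawn with matplotlib 3.10.9.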

Additional observations from a re-analysis of the deposited data

How the results depend on the processing

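Of 130 recomputed differences of the 10 genes (13 alternatives each), 112 kept their direction and their side of the threshold, 9 lost the call (all PHO5), 4 gained one (PHO11 with the replicate block and without deletion replicate 1, PHO84 without wild-type replicate 1, PHO89 after quantile normalization) and 5 turned sign, all for genes that had not passed. The turned values were -0.0187 for PHO11 and 0.0287 for PHO89 without the 3 arrays of high 25S signal, -0.0109 for PHO81 after median centring, -0.0806 for SPL2 after quantile normalization, and, over single arrays left out, -0.0215 to 0.0685 for PHO81. PHO80 turned to -0.0116 without the 3 arrays of high 25S signal. With the replicate block 4 of the 10 genes were called higher and 1 lower, and in the wider list 7 higher and 6 lower, against 6 and 4. It added calls for PHO11, DIA3, ARG82 and PCL8 and changed no call of the other genes named in the results. With 1 array left out, 2 to 3 of the 10 were called higher and 1 to 2 lower; quantile normalization gave 2 lower. Of the wider list, 3 were called higher without the 3 arrays of high 25S signal and 8 lower after quantile normalization, against 6 and 4. Over all tested probe sets, 868 were called higher and 540 lower; fitting all probe sets of the array gave 558 and 314, leaving out the 3 arrays of high 25S signal gave 447 higher, and leaving out 1 array gave 507 to 874 higher and 284 to 560 lower. These fits had fewer arrays or more probe sets, but the counts did not always drop. Without deletion replicate 1 they were 874 higher and 550 lower. The cause of the changed counts was not tested. The setting without the 3 arrays of high 25S signal leaves 1 deletion array, which is assumed to vary like the wild-type pair. Averaging several probe sets of a gene could not be run for these genes, each of which has 1. Values near background, as for SPL2, limit what can be read. Quantile normalization lowered the differences of low-signal genes together: PHM6 (0.65 to 0.41), PHO3 (0.38 to 0.12) and PHO92 (0.40 to 0.17). SPL2 (0.10 to -0.08), PHO89 (-0.07 to -0.31) and CTF19 (-0.28 to -0.51) moved the same way. HOR2, with high signal, stayed at 0.62. Medians over all probe sets were higher on the deletion arrays, and a link to these shifts was not tested.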

Other observations

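PHO84 was not the only transcript that stood high on wild-type replicate 1. The genes that follow were chosen after their values were seen. ADE17, an enzyme of purine synthesis, came next in rank, at 10.73 on wild-type replicate 1 against 9.23 and 9.20 on replicates 2 and 3, and it read 10.07, 10.25 and 10.03 on the deletion arrays. PRM7 read 9.13 on wild-type replicate 1 against 7.93 and 7.71, and 8.46 on deletion replicate 1 against 7.60 and 7.80 on the other deletion arrays. IZH4, a membrane protein gene of zinc homeostasis, read 11.86 against 10.86 and 10.87 in wild type and 11.53 against 10.91 and 10.90 in the deletion. PRM7 and IZH4 were thus high on replicate 1 of both strains, while ADE17 was high on replicate 1 of wild type alone. PHO90, the low-affinity phosphate transporter gene, read 12.51, 12.05 and 12.08 in wild type and 12.55, 12.31 and 12.47 in the deletion (replicates 1, 2 and 3), with replicate 1 the highest array of both groups.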
